A study of Mus musculus with 16 samples.

Results

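The data described here are the RNA levels of 8 genes of mouse splenic B cells, the plexins Plxnd1, Plxna1, Plxnb2 and Plxnc1 and the semaphorins Sema4a, Sema4b, Sema4d and Sema7a. They were taken by gene symbol from a table of 27928 genes, and all 8 were in it. Levels are normalized counts, that is, reads on the gene divided by a size factor of the library. The cells were the recirculating naive B cells of the follicles (FO) and the B cells of the marginal zone (MZ), which face the blood, sorted as CD21-low CD23-high and CD21-high CD23-low cells, in that order. The donors were C57BL/6 mice, either wild type (WT) or Gtf2i fl/fl with deletion in the B lineage (conditional knockout, cKO), in which the gene for the transcription factor TFII-I is deleted in B lineage cells only. The study used young adult mice and gave no treatment to these cells. There were 8 RNA libraries, 2 in each of the groups WT FO, cKO FO, WT MZ and cKO MZ, and the 8 ATAC-seq samples of the series were not analysed here. The WT mice are not described as carrying any allele of the cross, so those alleles and the deletion of Gtf2i itself cannot be told apart. No source used here says whether a library came from 1 mouse or from several, so p-values measure the spread between libraries.

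Plexins are large transmembrane receptors, and semaphorins are their ligands. Semaphorins were first known as guidance cues for growing axons, and in the immune system they act on cell migration, adhesion and contact between lymphocytes and antigen-presenting cells. The inside part of a plexin turns off small GTPases of the Ras and Rap family and binds other small GTPases, which loosens integrin adhesion and rearranges actin. Class 3 semaphorins are secreted and mostly need a neuropilin as co-receptor. Class 4 semaphorins span the membrane, and Sema7a is held on the membrane by a lipid anchor.

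The libraries held between 21546552 and 25083552 reads on genes. Cr2, which encodes CD21, was 3.64-fold higher in MZ and Fcer2a, which encodes CD23, was 6.05-fold higher in FO over both genotypes, and all 5 listed MZ markers (Cd1d1, Cd9, S1pr3, Dtx1 and Mzb1) were higher in every MZ library than in every FO library. The deleted gene Gtf2i was between 1992 and 2864 normalized counts in WT and between 1523 and 1889 in cKO libraries, counted over the whole gene and not over the deleted part alone. Xist was 25930 or more in the 4 WT libraries and the Y-linked Ddx3y at most 6.34, whereas Ddx3y was at least 2682 in the 4 cKO libraries and Xist was high (14748) only in cKO FO replicate 1, so genotype and sex cannot be told apart. That FO library held both transcripts, with Ddx3y at 2682, while Xist was 89.7 and 21.7 in the cKO MZ libraries. Sex-linked transcripts thus also differ between libraries within cKO. Library cKO MZ replicate 1 stood apart in granulocyte markers, which summed to 1875 normalized counts over 9 genes against at most 113 elsewhere, and in erythroid and platelet markers, which summed to 12200 over 8 genes against at most 1024. In sorted bulk RNA, fewer cells that express a gene and less RNA per cell cannot be told apart.

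The promoter sequences of 3 of the genes are shown because these genes were higher in MZ, as given further on, and have 1 annotated start each in the RefSeq table, and because Plxnc1 and Sema7a are a receptor and its ligand. Of the 8 genes, 7 had an entry in that table (build GRCm38.p6), and Plxna1 had none. Each sequence is the 250 bases before the start of transcription, 5′ to 3′ on the strand of the gene. Capitals mark matches on either strand to the GC box GGGCGG, a site of Sp and KLF factors, and to GAAANNGAA, a pair of cores read by interferon regulatory factors.
Plxnd1 (chr6:115995006-115995255, minus strand): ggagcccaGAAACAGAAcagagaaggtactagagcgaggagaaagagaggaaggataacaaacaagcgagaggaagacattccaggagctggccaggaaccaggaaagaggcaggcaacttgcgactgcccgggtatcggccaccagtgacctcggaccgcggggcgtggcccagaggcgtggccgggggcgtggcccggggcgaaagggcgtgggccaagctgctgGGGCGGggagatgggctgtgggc
Plxnc1 (chr10:94944846-94945095, minus strand): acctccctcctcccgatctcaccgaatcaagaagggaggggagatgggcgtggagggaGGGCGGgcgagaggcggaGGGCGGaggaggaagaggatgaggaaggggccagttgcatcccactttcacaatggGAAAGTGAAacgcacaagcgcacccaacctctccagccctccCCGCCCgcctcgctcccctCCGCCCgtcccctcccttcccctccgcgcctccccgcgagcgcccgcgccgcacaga
Sema7a (chr9:57939862-57940111, plus strand): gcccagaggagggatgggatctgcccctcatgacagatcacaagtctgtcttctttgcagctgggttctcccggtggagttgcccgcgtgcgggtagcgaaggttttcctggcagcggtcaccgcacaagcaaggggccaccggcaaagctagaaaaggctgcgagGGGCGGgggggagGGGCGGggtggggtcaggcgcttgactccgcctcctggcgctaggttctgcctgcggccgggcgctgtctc

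The 3 windows were rich in G and C, with 64.8% in Plxnd1, 68.8% in Plxnc1 and 66.4% in Sema7a. The GC box matched once in Plxnd1, 4 times in Plxnc1 and at 2 places in Sema7a, and 32.7% of all 32817 windows of the same length in the table held at least 1 match. The pair GAAANNGAA matched once in Plxnd1, with 233 bases between it and the start, and once in Plxnc1, with 109 bases between, and not in Sema7a, and 7.12% of all windows held it. The core TGGGAA, read by the Notch effector RBPJ, matched once in Plxnc1, where it overlaps the pair GAAANNGAA, and 21.6% of windows held it. The core GAGGAA, read by PU.1, matched at 2 places each in Plxnd1 and Plxnc1 and not in Sema7a, against 23.3% of windows. The E-box CANNTG, a kind of site that TFII-I binds together with USF, matched once in Plxnc1 and once in Sema7a and not in Plxnd1, against 66.2% of windows. A match is a run of letters and no evidence of binding.

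FO and MZ B cells differed in 4 of the 8 genes: the receptors Plxnd1 and Plxnc1 and the ligands Sema7a and Sema4b were higher in MZ and none was higher in FO. This count was the same in WT, in cKO and over both genotypes. A call needed a p of 0.05 or less after Benjamini-Hochberg adjustment and a change of 1.5-fold or more in limma. The fit was made on log2(normalized count + 1) for the 14761 genes whose mean level over the libraries reached 10, and all 8 genes passed this filter. Of all tested genes, 7.41% were called higher in MZ and 4.62% higher in FO in WT, 8.18% and 5.54% in cKO, and 11.6% and 7.94% over both genotypes. Over both genotypes DESeq2 and edgeR on the recovered reads called the same number of members higher in MZ, where they called 11.8% and 11.7% of all genes. The median difference, FO minus MZ, was -0.68 on the log2 scale over the 8 genes and 0.0045 over all genes.

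**Figure D1:**
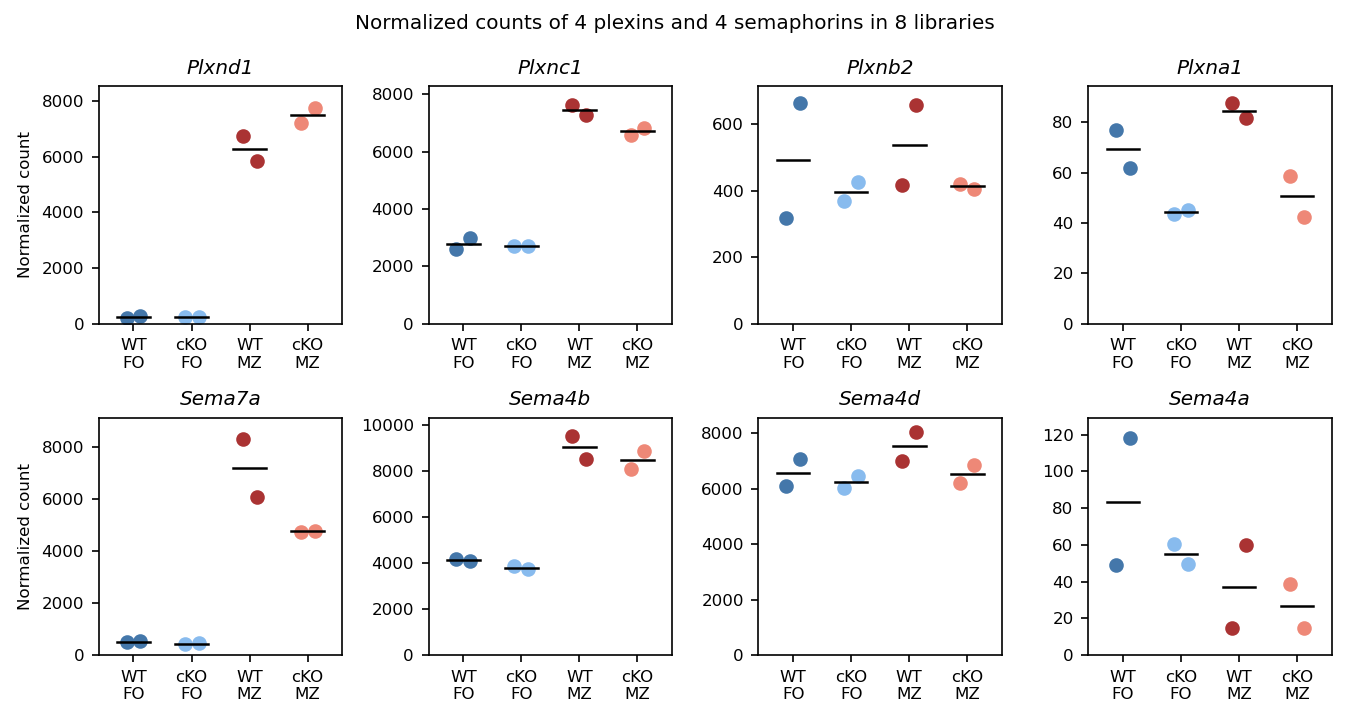
Normalized counts (vertical axis of each panel, from 0) of the 4 plexins (upper row) and 4 semaphorins (lower row) in the groups WT FO, cKO FO, WT MZ and cKO MZ. Each point is 1 library, replicate 1 to the left of replicate 2, and each bar is the mean of 2; Plxnd1, Plxnc1, Sema7a and Sema4b show every MZ library above every FO library.

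Plxnd1 (ENSMUSG00000030123.15, GRCm38 chr6:115954811-115995005, minus strand) encodes the receptor of Sema3e, which it binds without a neuropilin. The WT FO libraries held 205 and 267 normalized counts and the cKO FO libraries 247 and 219, against 6742 and 5834 in WT MZ and 7217 and 7765 in cKO MZ. The FO libraries were low and close to each other, and the MZ libraries lay far above them without overlap. The MZ mean was 26.7-fold above the FO mean in WT and 32.1-fold in cKO, a log2 difference of -4.74 ± 0.15 (SE) and -5.00 ± 0.15 in limma with adjusted p = 7.51e-06 and 5.73e-06. This was the largest FO against MZ difference of the 8 genes.

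Plxnc1 (ENSMUSG00000074785.5, GRCm38 chr10:94790866-94944835, minus strand) encodes the plexin that binds Sema7a. The normalized counts were 2591 and 2968 for WT FO, 2713 and 2706 for cKO FO, 7640 and 7280 in WT MZ and 6582 and 6834 in cKO MZ. FO cells thus had a substantial level of this receptor, and the MZ libraries were all higher. The MZ to FO ratio of means was 2.68 in WT and 2.48 in cKO, with log2 differences of -1.43 ± 0.09 and -1.31 ± 0.09 (SE) and limma adjusted p of 0.000126 and 0.000157. The non-coding locus Gm48718 shares 115 exon bases with Plxnc1 on the same strand and had a mean normalized count of 1.11, and how reads in that stretch were assigned is not given in the sources used here.

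Plxnb2 (ENSMUSG00000036606.17, GRCm38 chr15:89155549-89180788, minus strand) encodes a receptor of class 4 semaphorins. The normalized counts were 318 and 663 for WT FO, 368 and 425 for cKO FO, 417 and 657 in WT MZ and 421 and 404 in cKO MZ. The groups overlapped, and the highest values were those of replicate 2 in both WT groups. FO minus MZ was -0.19 in WT, with a 95% interval from -0.97 to 0.60 on the log2 scale, and -0.06 in cKO, with an interval from -0.85 to 0.73. The summed count of 14 macrophage and monocyte markers was 1516 in WT FO replicate 2 against 853 in replicate 1, and 2116 in WT MZ replicate 2 against 962 in replicate 1. Of these markers, Cd68 and Spic were lower in replicate 2 of both WT groups and the others were higher. Cd68 was 173 against 221 in WT FO and 283 against 378 in WT MZ, and Spic was 62.8 against 71.9 and 159 against 178. The sum of 9 granulocyte markers was also lower in replicate 2, at 58.0 against 110 in WT FO and 54.3 against 97.3 in WT MZ. In the cKO MZ libraries the macrophage sum was 2372 and 1623 while Plxnb2 was 421 and 404, and no macrophage marker was at 0 in any library. The 8 dendritic markers summed to 310 in WT FO replicate 2 and 470 in WT MZ replicate 2, against 213 and 314 in the replicate 1 libraries, but the highest sum was in cKO MZ replicate 1 (519), with 439 in cKO MZ replicate 2. The part of such cells in the level of Plxnb2 was not tested.

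Plxna1 (ENSMUSG00000030084.11, GRCm38 chr6:89316314-89362620, minus strand) encodes a receptor that pairs with neuropilins for class 3 semaphorins and binds class 6 semaphorins. It had the lowest counts of the 4 plexins, with 76.8 and 61.8 for WT FO, 43.7 and 45.3 for cKO FO, 87.6 and 81.5 in WT MZ and 58.8 and 42.3 in cKO MZ. FO minus MZ was -0.29 in WT (95% interval -0.90 to 0.32) and -0.16 in cKO (-0.77 to 0.45), and neither was called. The antisense gene Gm26811 covers 970 of its exon bases (10.7% of the exon length) and had a mean of 0.606. No source used here says whether strand was used in counting, and reads from the pair cannot be told apart without it.

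Sema7a (ENSMUSG00000038264.8, GRCm38 chr9:57940112-57962865, plus strand) encodes a ligand of both Plxnc1 and integrins with the beta 1 chain. The normalized counts were 485 and 529 for WT FO, 406 and 475 for cKO FO, 8314 and 6069 in WT MZ and 4739 and 4793 in cKO MZ. All MZ libraries were far above all FO libraries, and the WT MZ pair was both higher and more spread than the cKO MZ pair. The MZ to FO ratio was 14.2 in WT and 10.8 in cKO, with log2 differences of -3.81 ± 0.15 and -3.44 ± 0.15 (SE) and limma adjusted p of 1.41e-05 and 2.50e-05.

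Sema4b (ENSMUSG00000030539.13, GRCm38 chr7:80186841-80226527, plus strand) encodes a class 4 semaphorin. The normalized counts were 4196 and 4098 for WT FO, 3858 and 3725 for cKO FO, 9550 and 8518 in WT MZ and 8082 and 8895 in cKO MZ. The MZ libraries did not overlap with the FO libraries, and the step was much smaller than for Sema7a. The ratio of MZ to FO was 2.18 in WT and 2.24 in cKO, with log2 differences of -1.12 ± 0.09 and -1.16 ± 0.09 (SE) and limma adjusted p of 0.000334 and 0.000256.

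Sema4d (ENSMUSG00000021451.16, GRCm38 chr13:51685529-51793747, minus strand) encodes CD100, which binds Plxnb1 and, on lymphocytes, Cd72. The normalized counts were 6087 and 7053 for WT FO, 6040 and 6441 for cKO FO, 7009 and 8058 in WT MZ and 6190 and 6852 in cKO MZ. The gene was high in every library, and FO and MZ overlapped. FO minus MZ was -0.20 in WT (95% interval -0.46 to 0.06) and -0.06 in cKO (-0.32 to 0.20), and a 1.5-fold difference lies outside both intervals.

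Sema4a (ENSMUSG00000028064.17, GRCm38 chr3:88435959-88461182, minus strand) encodes a ligand of Plxnd1, of class B plexins and of Timd2, which is known from dendritic cells and T cell priming. The normalized counts were 48.9 and 118 for WT FO, 60.5 and 49.3 for cKO FO, 14.4 and 59.8 in WT MZ and 38.9 and 14.4 in cKO MZ. It was the only member with a positive FO minus MZ difference, 1.33 in WT (95% interval -0.39 to 3.05) and 1.16 in cKO (-0.55 to 2.88), and the groups overlapped in WT but not in cKO. Over both genotypes the difference was 1.25 ± 0.49 (SE) with adjusted p = 0.0742 in limma. Replicate 2 was the higher library in both WT groups, and so was the dendritic marker sum given with Plxnb2. Of the 8 dendritic markers, 5 were higher in replicate 2 than in replicate 1 of both WT groups (Itgax, Siglech, Clec9a, Cd209a and Batf3) and 3 were lower in both (Flt3, Zbtb46 and Xcr1). The cKO MZ libraries, with sums of 519 and 439, had only 38.9 and 14.4 normalized counts of Sema4a. The part of such cells in the level of Sema4a was not tested. Without WT MZ replicate 2, Sema4a was called higher in FO over both genotypes (log2 difference 1.63, adjusted p = 0.0269), and under quantile normalization too (1.44, 0.0455); over the alternatives its adjusted p ran from 0.0117 to 0.194.

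**Figure D2:**
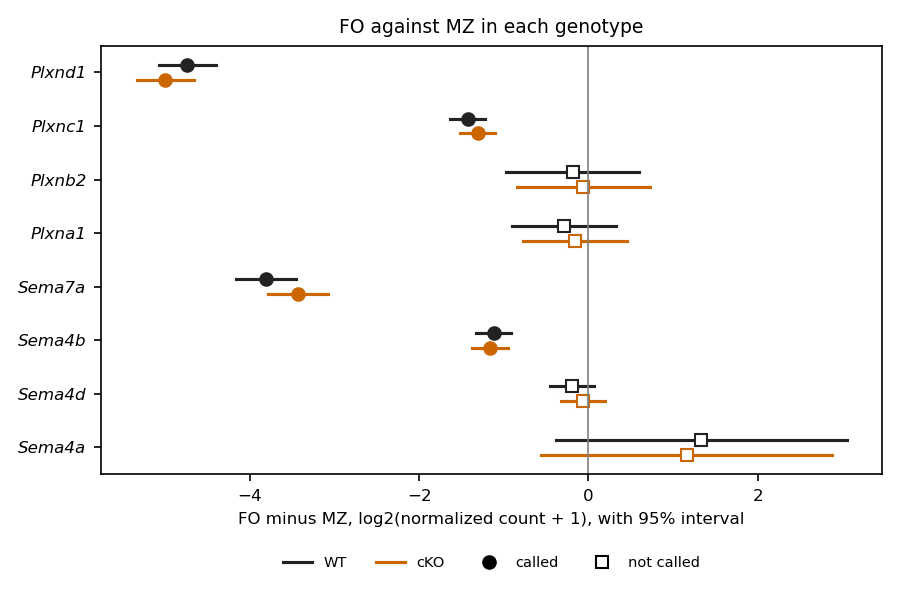
FO minus MZ difference of log2(normalized count + 1) (horizontal axis) for each of the 8 genes in WT and in cKO, with 95% intervals of the limma fit of 8 libraries. Filled circles mark called genes: Plxnd1, Sema7a, Plxnc1 and Sema4b lie below 0 in both genotypes, and the intervals of the other genes hold 0.

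Levels of different genes are compared per kilobase of exon, from the GENCODE exons of each gene. In WT FO the order was Sema4d (856 ± 88.9 normalized counts per kilobase, SD, n = 2), Sema4b (735 ± 12.4), Plxnc1 (333 ± 32.0), Sema7a (154 ± 9.43), Plxnb2 (63.6 ± 31.6), Plxnd1 (32.3 ± 6.08), Sema4a (15.4 ± 9.03) and Plxna1 (7.66 ± 1.17). The order was the same in cKO FO, from 813 for Sema4d to 4.91 for Plxna1, and no neighbours overlapped in either FO group. In WT MZ the order was Sema7a (2180 ± 481), Sema4b (1600 ± 129), Sema4d (981 ± 96.7), Plxnc1 (893 ± 30.6), Plxnd1 (861 ± 87.9), Plxnb2 (69.5 ± 21.9), Plxna1 (9.34 ± 0.479) and Sema4a (6.86 ± 5.93). The ranges of Sema4d and Plxnc1, of Plxnc1 and Plxnd1, and of Plxna1 and Sema4a overlapped there, so their order is not resolved. In cKO MZ, Sema4b (1504 ± 102) and Sema7a (1445 ± 11.5) overlapped at the top, followed by Plxnd1 (1026 ± 53.0), Sema4d (849 ± 61.0) and Plxnc1 (803 ± 21.4), of which Sema4d and Plxnc1 overlapped. Plxnd1 thus stood below Plxnb2 in both FO groups and above it in both MZ groups, with no overlap in any of the 4. Dividing by coding length in place of exon length changed the rank of 4 genes in WT MZ and 5 in cKO MZ, and Plxnd1 moved from rank 3 to rank 5 in cKO MZ. In WT MZ it put Sema4b (3659 per kilobase of coding length) above Sema7a (3610), so their order there depends on the length used.

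**Figure D3:**
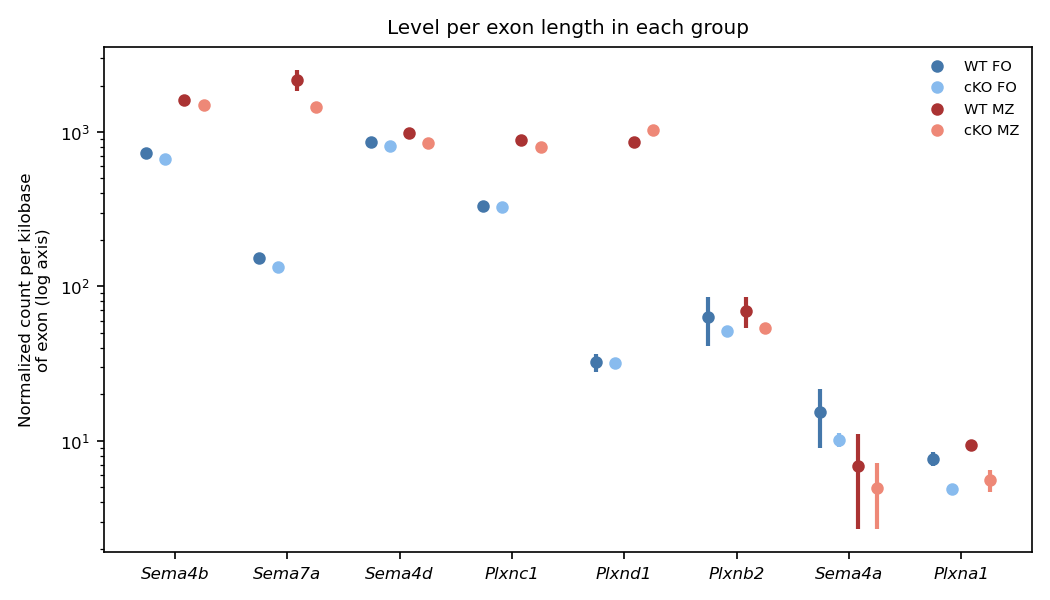
Normalized count per kilobase of exon (vertical log axis) for each gene in each group. Points are means of 2 libraries and lines join the libraries; Sema7a and Plxnd1 show the widest gap between the FO and MZ groups, and Sema4d the narrowest among the 5 genes of high level.

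The comparison of cKO with WT asks how the genotypes differ within each subset. The loss of TFII-I cannot be told apart there from sex or from the alleles of the cross. None of the 8 genes was called in FO, in MZ or over both subsets in limma. The background was low too: 0.0677% of all genes were called in FO, 0.0339% in MZ and 0.149% over both subsets in either direction. DESeq2, which called 0.169%, 0.325% and 0.528% of all genes, and edgeR, which called 0.061%, 0.0271% and 0.142%, also called none of the 8. At an unadjusted limma p under 0.05 there was 1 member in FO (Plxna1) and 2 in MZ (Plxna1 and Sema7a), and 2 over both subsets (the same genes), against 382, 596 and 1230 of all 14761 genes in these comparisons. The cKO minus WT difference was below 0 for 8 of 8 genes in FO and 7 of 8 in MZ, with medians of -0.17 and -0.26 on the log2 scale against -0.01 for all genes in each.

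Sema7a in MZ cells had the smallest unadjusted p of the members in a comparison of cKO with WT within a subset. Both cKO MZ libraries (4739 and 4793) were below both WT MZ libraries (8314 and 6069), a ratio of means of 0.663 and a log2 difference of -0.58 ± 0.15 (SE). The limma p was 0.00605, and the adjusted p was 0.932, with 0.0962 to 1.00 over the alternative settings. The difference ran from -0.80 without WT MZ replicate 2 to -0.35 without WT MZ replicate 1, the library with the highest count of Sema7a. In FO the cKO libraries (406 and 475) also lay below the WT libraries (485 and 529), with a difference of -0.20 and a 95% interval from -0.56 to 0.15. Of all tested genes, 24% had no overlap between the genotypes in FO and 34.5% in MZ, in either direction, so that a lack of overlap between pairs of libraries is common here. Over both subsets the difference was -0.39 ± 0.12 with adjusted p = 0.456.

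Plxna1 was lower in all 4 cKO libraries (42.3 to 58.8 normalized counts) than in all 4 WT libraries (61.8 to 87.6). Within FO 24% and within MZ 34.5% of all tested genes had no overlap between the genotypes. The share with no overlap over both subsets together was not computed, so how common such a separation is remains unknown. The log2 difference was -0.62 ± 0.26 (SE) in FO, -0.75 ± 0.26 in MZ and -0.69 ± 0.17 over both subsets, with adjusted p of 1, 0.998 and 0.346 in limma. Over the alternative settings the adjusted p over both subsets ran from 0.193 to 0.780. Sex-linked transcripts separate the same libraries, and their part in this difference was not tested.

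The other members gave these intervals for cKO minus WT in MZ: Plxnd1 0.26 (95% interval -0.08 to 0.60), Plxnc1 -0.15 (-0.36 to 0.06), Sema4b -0.09 (-0.30 to 0.12) and Sema4d -0.21 (-0.47 to 0.05). Of these 4 intervals only that of Plxnd1 reaches past 1.5-fold. Plxnb2 at -0.34 (-1.13 to 0.44) and Sema4a at -0.30 (-2.02 to 1.41) had wide intervals, within which the data do not set a direction. In FO the differences of Plxnd1, Plxnc1, Sema4b and Sema4d were between -0.13 and -0.0052. The interaction of genotype and subset, the FO minus MZ difference in WT less that in cKO, was called for 0 of the 8 genes and for 0% of all genes by limma, and likewise by DESeq2 and by edgeR; 94 genes and none of the members had an unadjusted limma p under 0.05. Its value was 0.26 for Plxnd1 (95% interval -0.22 to 0.74) and -0.37 for Sema7a (-0.88 to 0.13).

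**Figure D4:**
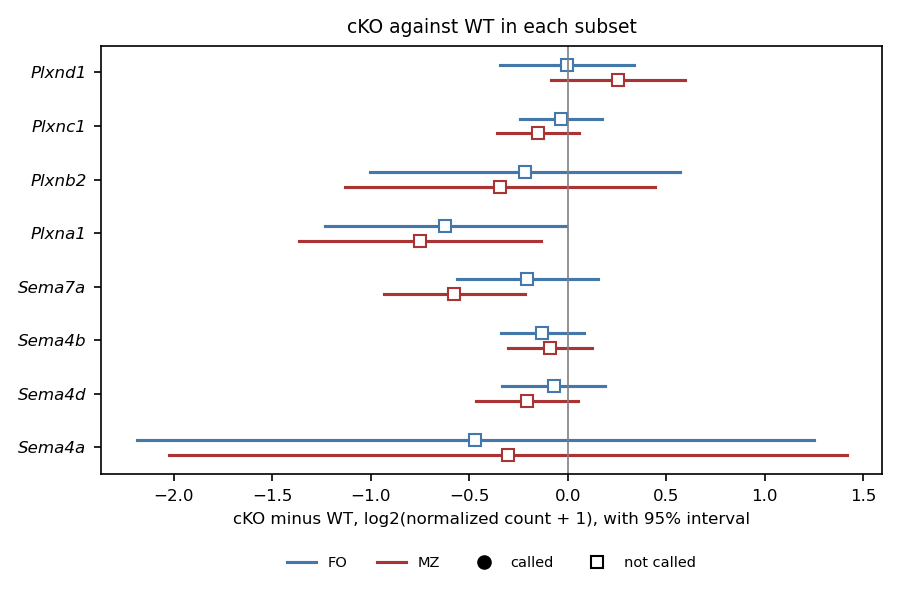
cKO minus WT difference of log2(normalized count + 1) (horizontal axis) for each of the 8 genes in FO and in MZ, with 95% intervals of the limma fit. All points are open squares, since no gene was called; the intervals of Plxna1 in both subsets and of Sema7a in MZ lie below 0, and those of Sema4a are the widest.

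Partners of these genes were taken from 7 lists of 78 genes: other plexins and semaphorins, co-receptors, sheddases, small GTPases, their regulators and cytoskeletal effectors. Of the 78, 49 passed the filter, and over both genotypes 11 were called higher in MZ and 3 higher in FO, where 11.6% and 7.94% of all genes were called. The count higher in FO is near the share over all genes. The median FO minus MZ difference of the 49 was -0.07 on the log2 scale. Among the co-receptors, 5 of 7 tested genes were called higher in MZ and 1 higher in FO, and their median was -1.41.

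Nrp2, the neuropilin that serves class 3 semaphorins of the Sema3c and Sema3f kind, had normalized counts of 17 and 45.7 for WT FO, 31.4 and 28.2 for cKO FO, 793 and 878 in WT MZ and 1090 and 1070 in cKO MZ. It was the partner with the largest difference, -4.99 ± 0.26 (SE) over both genotypes with adjusted p = 2.62e-06 in limma, and all MZ libraries were far above all FO libraries. Of 9 endothelial and stromal markers 7 were in the table. Their sum was 21.3 to 29.2 in FO libraries, 62.6 and 128 in WT MZ, and 88.7 and 237 in cKO MZ replicates 1 and 2. In cKO MZ replicate 2 Col1a1 was 111 and Col3a1 37.1, against at most 3.62 and 4.53 elsewhere. Cdh5 was 16.2 to 21 in FO and 55.9 to 110 in MZ, and Tek and Kdr were at most 6.34 in every library. The part of such cells in the level of Nrp2 was not tested. The secreted class 3 ligands were low: Sema3a, Sema3b, Sema3c, Sema3e, Sema3f and Sema3g reached at most 13.4 in any library. Sema3e, the ligand of Plxnd1, was at 0 in 7 of 8 libraries and 1.03 in cKO MZ replicate 2.

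Among the other co-receptors, Itgb1, the integrin beta 1 chain through which Sema7a acts, was 934 to 1106 in FO and 1552 to 2265 in MZ, a difference of -0.92 ± 0.13 (SE). Tyrobp, the signalling adaptor known to join Plxna1 with Trem2 in myeloid cells, was 346 to 497 in FO and 1018 to 1241 in MZ, a difference of -1.41 ± 0.09, while Trem2 itself was at most 5.03 in every library. L1cam, an adhesion molecule that pairs with Nrp1 in neurons, went the other way, with 569 to 722 in FO and 109 to 138 in MZ, a difference of 2.39 ± 0.11. Cd72, the lymphocyte receptor of Sema4d, was high in every library (7932 to 9765) and gave -0.03 with a 95% interval from -0.18 to 0.12. Timd2 was called higher in MZ at a low level, 0 to 13.3 in FO and 18.3 to 59.8 in MZ, and Nrp1 at 1.01 to 10.5 and 10.3 to 22.9, where the subsets overlapped and the limma adjusted p was 0.0490. Within MZ, both genes were higher in WT replicate 2 (59.8 and 17.2) and cKO replicate 1 (44.9 and 22.9) than in WT replicate 1 (18.3 and 11.6) and cKO replicate 2 (19.6 and 10.3). The sum of the 8 dendritic markers was 213 to 310 in FO and 314 to 519 in MZ. Of these markers, Siglech (55.2, 35.9, 17.3 and 14.4 in that order of libraries), Itgax, Cd209a and Batf3 showed the same split. Xcr1 went the other way (16.3, 11.0, 25.0 and 22.7), and Flt3, Zbtb46 and Clec9a did not follow the split. In the same order, the 14 macrophage and monocyte markers summed to 2116, 2372, 962 and 1623. The 4 natural killer markers summed to 406, 490, 441 and 357. The part of dendritic, macrophage or natural killer cells in both genes was not tested. Adam10 and Adam17, proteases that shed membrane proteins, were not called, with differences of -0.07 and -0.09.

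The other plexins with a measurable level were Plxna3, at 328 to 475 normalized counts, and Plxnb1, the high-affinity receptor of Sema4d, at 16.3 to 26.0, and neither was called in any comparison. Plxna2, Plxna4 and Plxnb3 did not pass the filter and reached at most 22.2. Of the 15 other semaphorins in the table, 4 passed. Sema5a was 274 to 338 in FO and 356 to 543 in MZ, with a difference of -0.55 ± 0.14 and adjusted p = 0.0154 that stayed under the 1.5-fold cutoff. Sema4g, at 13.0 to 33.9, and Sema6d, at 1.93 to 22.6, were not called.

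Sema6b, a transmembrane class 6 semaphorin, was the only gene of the partner lists called in a comparison of cKO with WT. Its normalized counts were 32.9 and 39.0 for WT FO, 110 and 124 for cKO FO, 351 and 229 in WT MZ and 760 and 622 in cKO MZ. Each cKO pair was above its WT pair, and each MZ pair was above each FO pair. The FO minus MZ difference over both genotypes was -2.75 ± 0.17 (SE), and cKO minus WT over both subsets was 1.47 ± 0.17 with adjusted p = 0.0132 in limma, while neither FO alone (1.67, adjusted p = 0.134) nor MZ alone (1.28, adjusted p = 0.403) was called. Over the alternatives for both subsets the adjusted p ran from 2.87e-10 to 0.0941, and the call was lost without cKO FO replicate 1 (1.47, 0.0506), cKO FO replicate 2 (1.40, 0.0815), WT MZ replicate 2 (1.39, 0.0559) or cKO MZ replicate 1 (1.46, 0.0941), each with its log2 difference and adjusted p. DESeq2 called it in FO (1.70, adjusted p = 9.85e-05) and in MZ (1.26, adjusted p = 0.00118). As for Plxna1, sex-linked transcripts separate the same libraries, and their part was not tested.

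Downstream of the receptors, 1 of 10 tested small GTPases was higher in FO and 1 in MZ, 2 of 7 of their regulators were higher in MZ, and of 17 cytoskeletal effectors 1 was higher in FO and 2 in MZ. The counts for the GTPases and the effectors are near the shares over all genes, 11.6% higher in MZ and 7.94% higher in FO. Rap1b, a Rap GTPase of the kind that plexins switch off, was 10417 to 14098 in FO and 4724 to 6630 in MZ, a difference of 1.14 ± 0.13 (SE). Rnd3, a small GTPase that binds plexins, was 7.98 to 12.1 in FO and 34.4 to 81.5 in MZ (-2.30 ± 0.24). Mical3, an actin-oxidizing enzyme of a family that works under plexins, was 447 to 552 in FO and 1421 to 1627 in MZ (-1.59 ± 0.06), and Limk1, a kinase of the actin-severing factor cofilin, was 449 to 498 and 783 to 905 (-0.83 ± 0.08). Arhgef12, an exchange factor for small GTPases that binds class B plexins, was 364 to 674 in FO and 950 to 1147 in MZ (-1.02 ± 0.14), and Sh3bp1, a Rac-inactivating protein bound by Plxnd1, was 396 to 473 and 544 to 727 (-0.60 ± 0.09), a call lost under quantile normalization (-0.50) and without WT FO replicate 1 (-0.54), WT MZ replicate 1 (-0.56) or cKO MZ replicate 2 (-0.58), where the change was under 1.5-fold. Dpysl2, a mediator of the response to class 3 semaphorins, was higher in FO, with 439 to 451 against 176 to 310 (0.83 ± 0.15). Each of these 7 genes was called over both genotypes, which is the rule by which they were named.

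**Figure D5:**
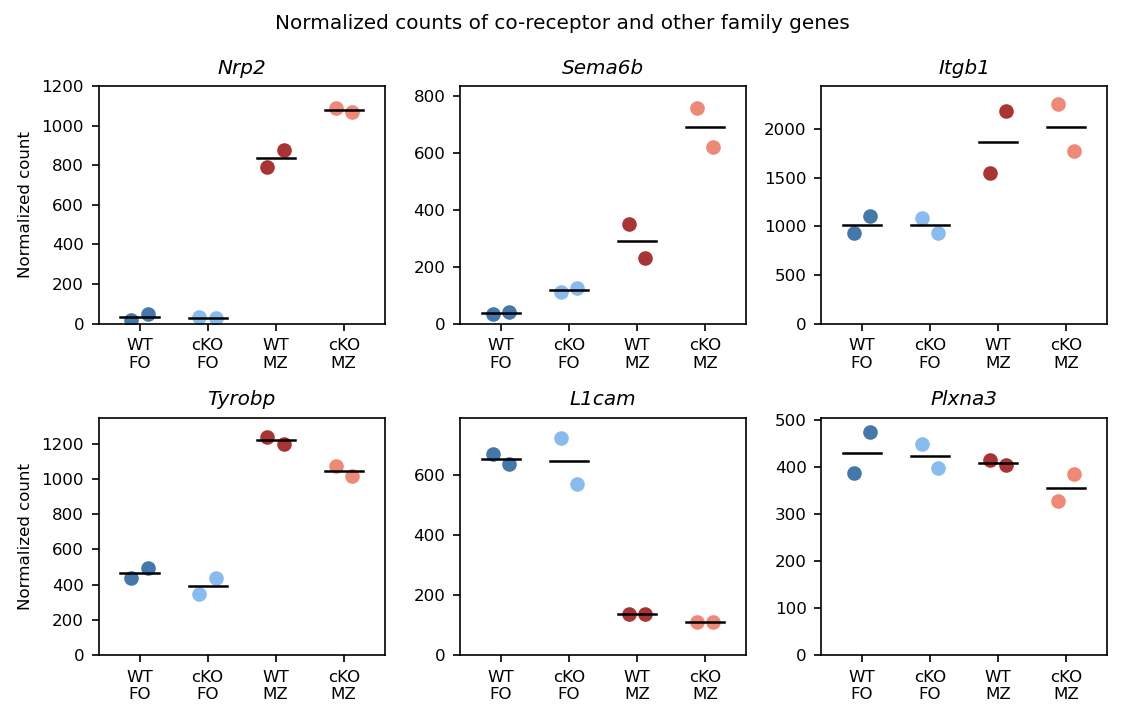
Normalized counts (vertical axis of each panel, from 0) of Nrp2, Sema6b, Itgb1, Tyrobp, L1cam and Plxna3 in the 4 groups. Points are libraries and bars are means of 2. Nrp2, Itgb1 and Tyrobp are higher in MZ, L1cam is higher in FO, and Sema6b is higher in MZ and in cKO within each subset. Plxna3 overlaps between FO and MZ in WT but not in cKO, and was not called in either.

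The tested genes most like Plxnd1, Plxnc1 and Sema7a across the 8 libraries, by Pearson r on the log2 scale, were Dph5, Trpm2 and Pla2g7 for Plxnd1 (r from 0.998 to 0.999), Rap1gap, Pqlc2 and Tlr3 for Plxnc1 (0.998 to 0.9997), and Slc20a2, Cd81 and Marcks for Sema7a (0.997 to 0.998). The 8 points fall into an FO and an MZ set, so r mainly carries the step between the subsets. The 3 lists of neighbours had no gene in common.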

How the data were processed

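RNA of sorted FO and MZ B cells was sequenced as 50-base single-end reads after depletion of ribosomal RNA. By the study's methods and the submitters' processing notes, reads were aligned to mm10 with HISAT2, counted with featureCounts and htseq-count and normalized with DESeq2. What the authors deposited is a signal, the normalized count, with reads on each gene scaled by a size factor per library. Whole reads were recovered for 100% of values (within 0.01). The table holds 27928 genes, 27872 of them found in GENCODE M21, after 256343 blank lines were dropped.

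Values were put on a log2 scale after adding 1, and limma 3.58.1 (R 4.3.3; lmFit, then eBayes with trend) was run over the genes with a mean of 10 or more, with 1 fit of 8 libraries; the comparisons over both genotypes or both subsets used an additive model. DESeq2 1.42.0 and edgeR 4.0.16 were run on the recovered reads as alternatives. The code was tested on simulated data. Replicates differed by more than sampling noise, with a chi-square per degree of freedom between 13.3 and 42.8. Counting error is small at 21546552 to 25083552 reads, except for genes of few counts, and precision is set by having 2 libraries a group.

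The 8 genes, the gene lists and the alternatives were chosen with earlier results of these data known. Named partners are genes of the lists called between FO and MZ over both genotypes (the 12 with the smallest p), those called by genotype, the other plexins and semaphorins past the filter, and for each called member the 3 genes of highest Pearson r, of which those of Sema4b are not reported here. Timd2, Nrp1, Cd72, Adam10, Adam17, Trem2, the class 3 semaphorins and single markers were named after their values were seen.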

Additional observations from a re-analysis of the deposited data

How the results depend on the processing

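The limits are the 2 libraries per group and the low counts of Sema4a and Plxna1. Over a pseudocount of 0.5, no filter on low values, quantile normalization, fitting the 4 compared libraries alone, DESeq2, edgeR, no fold cutoff or a 2-fold cutoff, the replicate number as a block and each library left out, 4 members were called between FO and MZ, except that Sema4a made it 5 over both genotypes under quantile normalization, without WT MZ replicate 2 and with the exchanged block below. No setting called a member in cKO against WT or in the interaction. Of 872 alternative values for the members, 842 kept their direction and side of the threshold.

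Plxnd1, cKO against WT in FO, turned to 0.0081 under quantile normalization, as did FO minus MZ in cKO of Plxna1 (0.034) and Plxnb2 (0.069). Leaving out 1 library turned the sign of differences that were not called, with these lowest and highest values. For FO minus MZ in cKO they were -0.40 and 0.071 for Plxna1, -0.16 and 0.043 for Plxnb2 and -0.14 and 0.011 for Sema4d. For Plxnb2 they were -0.72 and 0.34 for FO minus MZ in WT and -0.32 and 0.10 over both genotypes. For cKO minus WT in FO they were -0.20 and 0.19 for Plxnd1, -0.74 and 0.31 for Plxnb2, -0.13 and 0.065 for Plxnc1, -1.10 and 0.16 for Sema4a and -0.18 and 0.035 for Sema4d, and in MZ -1.29 and 0.68 for Sema4a. For the interaction they were -0.36 and 0.11 for Plxna1, -0.66 and 0.40 for Plxnb2, -0.82 and 1.15 for Sema4a and -0.042 and 0.12 for Sema4b. The cause was not tested.

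The replicate number as a block left 4 members called between FO and MZ in WT, in cKO and over both genotypes, and 0 by genotype. Deviations of same-numbered libraries correlated over genes at 0.591 between WT FO and WT MZ, 0.294 between WT FO and cKO FO and 0.161 between cKO FO and WT MZ. With cKO MZ they correlated at -0.172 (WT FO), -0.0015 (cKO FO) and -0.296 (WT MZ), so the numbers were not taken to pair the samples across all 4 groups. With the cKO MZ numbers exchanged, chosen after seeing the data, 4, 4 and 5 members were called between FO and MZ and 0 by genotype.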

Other observations

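The collapsin response mediators, cytosolic proteins that act under class 3 semaphorins and are known from neurons, included 3 genes with reads in mainly 2 libraries. Crmp1 had a normalized count of 77.0 for WT MZ replicate 1, 23.7 for cKO MZ replicate 2, and at most 6.04 elsewhere. Dpysl3 was 84.8 and 41.2 in those libraries and at most 7.97 elsewhere, and Dpysl5 was 63.6 and 20.6 against at most 2.72. The neuronal adhesion gene Nrcam was 12.5 and 29.9 there against at most 2.24, and Plxna2 was 22.2 and 9.28 against at most 6.72. Of the members, Sema7a (8314), Sema4b (9550), Plxnc1 (7640) and Plxna1 (87.6) had their highest normalized count in WT MZ replicate 1, and Plxnd1 (7765) had its highest and Plxna1 (42.3) its lowest in cKO MZ replicate 2. Sema4a was lowest in these same libraries, at 14.4 in each. The highest counts of Sema4d (8058, WT MZ replicate 2), Plxnb2 (663, WT FO replicate 2) and Sema4a (118, WT FO replicate 2) were in other libraries. Sema7a, Sema4b and Plxnc1 were higher in every MZ library than in every FO library. The share of all genes with their highest or lowest count in WT MZ replicate 1 or cKO MZ replicate 2 was not computed. A link between the members and the neuronal genes was not tested. The choice of these genes followed from their values, and none of Crmp1, Dpysl3 and Dpysl5 was called in a comparison, while Nrcam and Plxna2 did not pass the filter on low values.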
